A study of Arabidopsis thaliana with 29 samples.

Results

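The genes ICL, PAP85 and AIM1 stand for the use of seed reserves and for peroxisomal beta-oxidation, and they were followed over all 12 groups of a microarray study of *A. thaliana* seedlings. They were taken by their symbols in the array annotation, 3 of the 22588 genes and unnamed probe sets that were tested. Each of them was read by 1 probe set, ICL (AT3G21720) by 257947_at, PAP85 (AT3G22640) by 258327_at and AIM1 (AT4G29010) by 253759_at. The members were chosen with earlier results of these data known, so their counts describe these 3 genes and do not stand for the pathways.

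Arabidopsis seedlings live on oil and storage proteins laid down in the seed until their leaves photosynthesise. Fatty acids from the oil are shortened by beta-oxidation in peroxisomes, the glyoxylate cycle turns the resulting acetyl units into precursors of sugar, and abscisic acid (ABA) is known for holding back germination and for maintaining seed programmes in the embryo. Beta-oxidation also shortens the side chain of the precursors of jasmonic acid.

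Seedlings of the Col-0 ecotype were of 3 genotypes, wild type (WT), *PV-NES* and *PV-NLS*. *PV-NES* plants carry the calcium-binding protein parvalbumin with a nuclear export signal, which keeps it in the cytosol, and *PV-NLS* plants carry it with a nuclear localisation signal. The promoter of the transgenes is not given in the sources used here. Parvalbumin is an animal protein and was not read on this *A. thaliana* array, so the genotype labels were not checked by it. After 3 days of stratification and 3 days of growth, the seedlings of each genotype spent 5 days on medium without hormone (control) or with 10 µM ABA, 50 µM methyl jasmonate (MeJA) or 1 µM ACC, the precursor of ethylene. The replicates of each transgenic genotype were 3 independent lines, numbered 1, 7, 11 for *PV-NES* and 4, 5, 8 for *PV-NLS*, with 1 array per line and treatment. WT had 2 control arrays and 1 array per hormone, so that the spread of the WT hormone groups was taken to be that of the other groups.

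The 29 arrays were of like brightness, with medians of 5.25 to 5.38 on the log2 scale, and replicate arrays correlated at 0.982 to 0.997. Whole seedlings were labelled as the tissue, and the measured leaf markers (3 of 25 listed, LHCB4.1, LHCB4.2 and PSAN) lay between 11.1 and 12.4 on every array, while the root markers (3 of 14 listed, PYK10, EXPA7 and EXPA18) lay between 4.43 and 12.3. In seedlings a change in signal cannot be divided into fewer cells of a type and less RNA per cell. A gene was called where its fold change was beyond 2 and its adjusted p under 0.05 in a limma fit of all 29 arrays, with Benjamini-Hochberg adjustment over the 22588 genes, and only called genes are said to have risen or fallen. The responses to ABA, MeJA and ACC in a genotype share their control arrays.

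ICL encodes isocitrate lyase, which splits isocitrate into glyoxylate and succinate in the glyoxylate cycle. ABA raised it about 10-fold in all 3 genotypes, MeJA raised it in *PV-NLS*, and no response to ACC was called. PAP85, a vicilin-like seed storage protein of the cupin family, was high on 2 of 7 ABA arrays and low on the other 27 arrays. AIM1, the multifunctional protein that hydrates and dehydrogenates the acyl chain in beta-oxidation, was higher by between 0.34 and 0.45 log2 units after ABA and after MeJA in every genotype, and never by 2-fold.

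**Figure D1:**
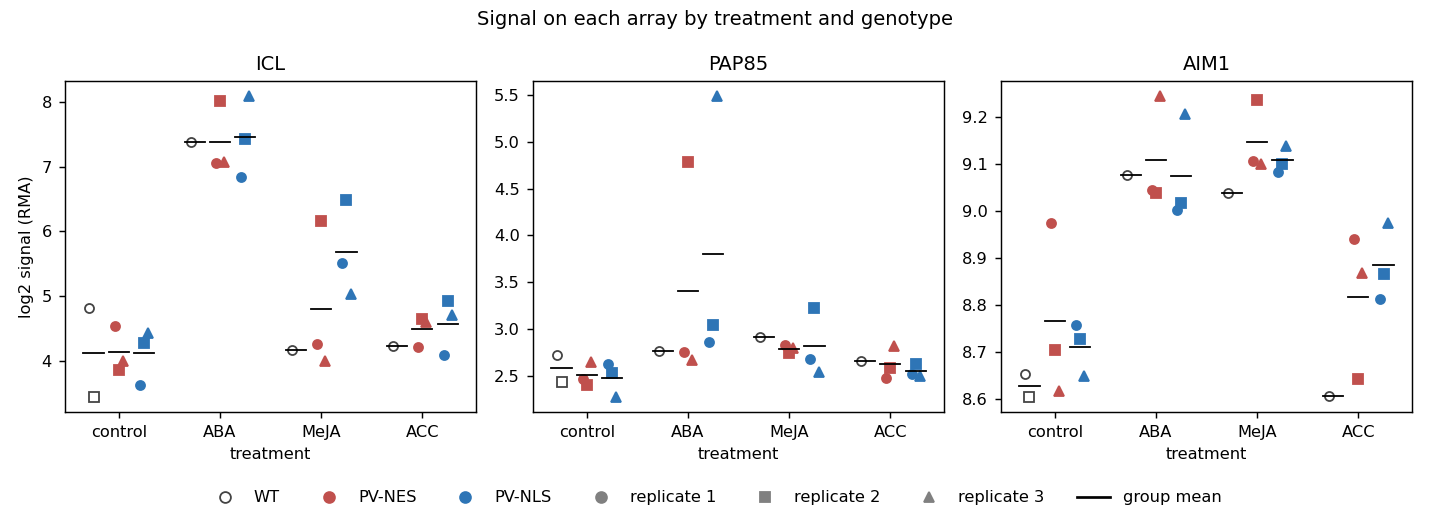
Log2 signal (RMA) of ICL, PAP85 and AIM1 on each of the 29 arrays, by treatment on the horizontal axis. Colours give the genotype, symbols the replicate (lines 1, 7, 11 of PV-NES and 4, 5, 8 of PV-NLS as replicates 1, 2, 3) and black lines the group means. All 7 ABA arrays of ICL lie above its other 22 arrays, and 2 ABA arrays of PAP85 stand above the rest.

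The control signal of ICL was 4.81 and 3.43 on the log2 scale in the 2 WT arrays. For *PV-NES* lines 1, 7 and 11 it was 4.53, 3.85 and 4.00. *PV-NLS* lines 4, 5 and 8 had 3.62, 4.27 and 4.43. The genotypes overlapped without hormone, all of these values lay below the array medians, and their differences from WT were 0.01 for *PV-NES* lines (limma, adjusted p = 0.997) and -0.01 for *PV-NLS* lines (0.998). With ABA, ICL reached 7.38 in WT. In the same order of lines it reached 7.06, 8.02 and 7.08 for *PV-NES*, while *PV-NLS* had 6.85, 7.44 and 8.10. Every ABA array lay above every array of the other 3 treatments, whose highest value was 6.48. Such a separation of the ABA arrays from all others was found for 1.82% of all genes tested.

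The log2 fold change of ICL after ABA was 3.27 for the WT array (limma, standard error 0.70, adjusted p = 0.00349). *PV-NES* changed by 3.26 with a standard error of 0.47 (adjusted p = 2.85e-05). *PV-NLS* changed by 3.35 with the same standard error (adjusted p = 1.41e-05). These are changes of 9.62-fold, 9.57-fold and 10.2-fold, and ICL took places 40, 35 and 35 among the 22588 genes ordered from the largest increase. Since the control signals were below the array medians and detection was not assessed, the size of the folds is uncertain. The log2 fold change in WT was 3.95 without control replicate 1 and 2.58 without control replicate 2, and was called in both cases. In WT the call rested on the spread of the other groups, because with only the 3 WT arrays in the fit the same change had an adjusted p of 0.142. The response differed between genotypes by -0.01 for *PV-NES* against WT (95% confidence interval -1.75 to 1.73), by 0.09 for *PV-NLS* against WT (-1.66 to 1.83) and by -0.09 for *PV-NES* against *PV-NLS* (-1.46 to 1.27). Intervals of this width hold differences of more than 2-fold in either direction.

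Each transgenic line rose against its own control array. The change was 2.53, 4.17 and 3.08 for *PV-NES* lines 1, 7 and 11. *PV-NLS* lines 4, 5 and 8 changed by 3.23, 3.16 and 3.67. Line 7 had the largest and line 1 the smallest of these 6 changes, and both belong to *PV-NES*.

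MeJA divided the lines. ICL was at 4.16 in the WT array, inside the range of the WT controls. Among *PV-NES* plants it was 4.26, 6.16 and 3.99 for lines 1, 7 and 11, so that line 7 alone lay above the controls. Among *PV-NLS* plants it was 5.52, 6.48 and 5.03 for lines 4, 5 and 8, all above the 3 controls of that genotype, a separation that 21.1% of all genes showed. Against each line's own control the changes were -0.27, 2.32 and -0.01 for *PV-NES*, and *PV-NLS* had 1.90, 2.21 and 0.60.

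The fitted response of ICL to MeJA was 0.04 for WT (limma, standard error 0.70, adjusted p = 0.981). *PV-NES* had 0.68 with a standard error of 0.47 (adjusted p = 0.322). *PV-NLS* had 1.57 with the same standard error (adjusted p = 0.0127), which is 2.96-fold. The call in *PV-NLS* was lost without line 4 (adjusted p = 0.0850) and without line 5 (log2 fold change 1.25, adjusted p = 0.142). A call in *PV-NLS* and none in WT do not show that the genotypes differ. The difference itself was 1.53 for *PV-NLS* against WT (95% confidence interval -0.21 to 3.27, adjusted p = 0.636 by limma), place 7 of all genes from the largest increase. It was 0.64 for *PV-NES* against WT (adjusted p = 0.965) and -0.89 for *PV-NES* against *PV-NLS* (adjusted p = 0.916). No gene at all was called for the 3 differences in the MeJA response by limma, while 34 were higher and 175 lower by over 2-fold for *PV-NLS* against WT at an unadjusted p under 0.05.

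Other values also changed after MeJA, not always on the arrays where ICL was high. The array of *PV-NES* line 7 had 120 genes more than 2-fold above and 120 genes more than 2-fold below both other lines of its group, the most of the 24 transgenic arrays, whose counts above ran from 1 to 120 with a median of 12.5. Without that array the response in *PV-NES* was near zero, with values from -0.14 to 1.15 over all left-out replicates. In *PV-NLS*, 2 of the 3 measured root markers also rose with MeJA, the root hair expansins EXPA7 by 1.02 (adjusted p = 0.00158) and EXPA18 by 1.38 (adjusted p = 0.00628). Both calls were lost without line 4 and again without line 5, as that of ICL was. The mean of the 3 root markers was 8.01 to 8.41 on the *PV-NLS* MeJA arrays and 7.25 to 7.52 on the *PV-NLS* controls. It was 7.16 to 8.19 on the *PV-NES* MeJA arrays, 7.32 to 7.49 on the *PV-NES* controls and 7.80 on the WT MeJA array. On the *PV-NES* line 7 MeJA array, where ICL was high, EXPA7 (4.48) and EXPA18 (4.91) were the lowest of the 3 lines. Line 1, with ICL at 4.26, had the highest EXPA18 of these lines (6.92). HPR, the peroxisomal hydroxypyruvate reductase of photorespiration, fell in *PV-NLS* by 1.02 (adjusted p = 3.06e-05), close to the 2-fold limit, and was not called with the arrays centred on their median. The part of these arrays and tissues in the ICL signal was not tested.

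With ACC, ICL was at 4.23 on the WT array. It was 4.21, 4.64 and 4.60 for *PV-NES*, and *PV-NLS* had 4.08, 4.92 and 4.71, overlapping with the controls of each transgenic genotype. The log2 fold changes after ACC, given for WT, *PV-NES* and *PV-NLS* as in all sets of 3 fold changes or counts that follow, were 0.11, 0.36 and 0.46 (limma, adjusted p = 0.946, 0.738 and 0.559). In order of the group means, the 3 ABA groups (7.46, 7.39 and 7.38) led and did not differ beyond the pooled SD of 0.66. A gap of 1.71 separated them from *PV-NLS* with MeJA at 5.68, followed after 0.87 by *PV-NES* with MeJA at 4.81, whose lines overlapped with those of *PV-NLS*. The other 7 groups lay between 4.11 and 4.57 with gaps smaller than the pooled SD.

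**Figure D2:**
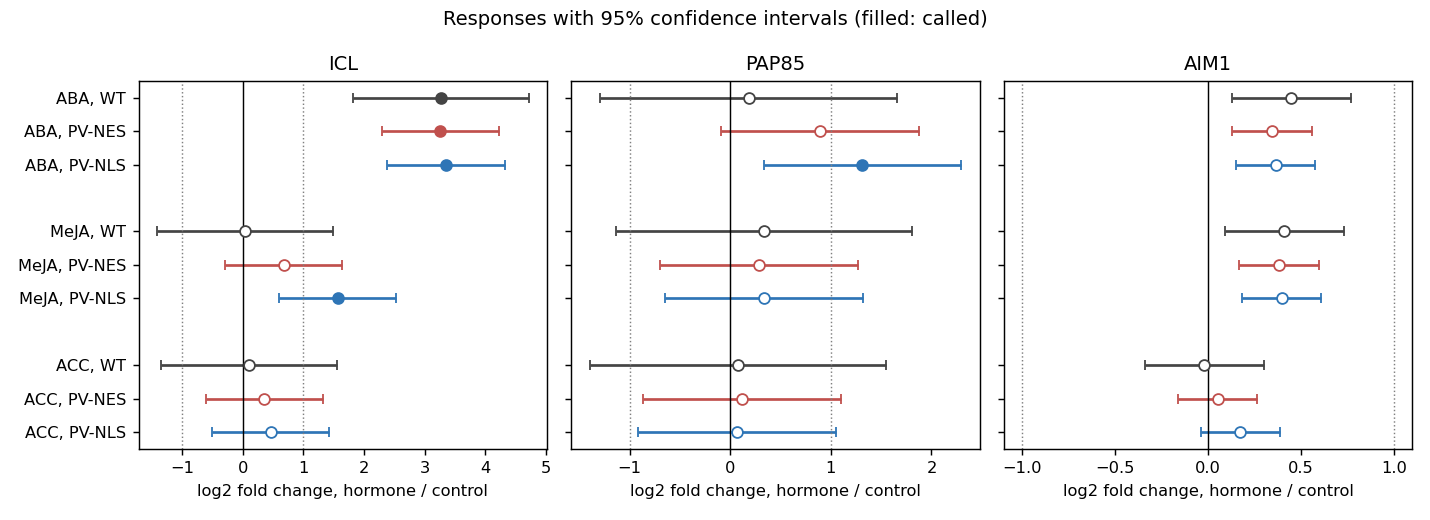
Log2 fold change of each hormone against its control in each genotype (points) with 95% confidence intervals (bars) from the limma fit of all arrays, filled where called. Solid and dotted vertical lines mark no change and 2-fold. ICL passed in 4 of 9 responses, PAP85 in 1 and AIM1 in none, and the scales of the 3 panels differ.

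PAP85 was among the dim genes, with 18.1% of probe sets below its mean. Its control signals spanned 2.44 to 2.73 for WT, 2.41 to 2.65 for *PV-NES* and 2.28 to 2.63 for *PV-NLS*. With ABA the WT array read 2.77. *PV-NES* lines 1, 7 and 11 read 2.76, 4.78 and 2.68, while *PV-NLS* lines 4, 5 and 8 read 2.87, 3.04 and 5.48. The arrays of *PV-NES* line 7 and *PV-NLS* line 8 therefore stood 2.02 and 2.44 above the next line of their group, and only the latter exceeded the median of its array. The other 27 arrays lay between 2.28 and 3.23, the upper end being *PV-NLS* line 5 with MeJA.

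The log2 fold change of PAP85 after ABA was 0.18 for WT (limma, standard error 0.71, adjusted p = 0.920). *PV-NES* had 0.89 with a standard error of 0.48 (adjusted p = 0.274). *PV-NLS* had 1.31 with the same standard error (adjusted p = 0.0459). The call in *PV-NLS* rested on line 8, since without that line the change was 0.37 (adjusted p = 0.606), and without its ABA array alone, an alternative chosen after the data were seen, 0.47 (adjusted p = 0.387). With each line paired with its own control as a replicate block, the same change of 1.31 had an adjusted p of 0.0535. The difference from WT was 1.13 in *PV-NLS* (95% confidence interval -0.64 to 2.90, adjusted p = 1.000 by limma), place 3 of all genes from the largest increase, and 0.71 in *PV-NES* (-1.06 to 2.48, adjusted p = 0.823). *PV-NES* and *PV-NLS* differed by -0.42 (-1.81 to 0.97, adjusted p = 0.854).

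The 2 arrays with high PAP85 also held the 2 highest ICL signals of the 29, 8.02 and 8.10. On the *PV-NES* line 7 array 83 genes were more than 2-fold above both other lines, with PAP85 at place 23, and on the *PV-NLS* line 8 array 12 genes were, with PAP85 at place 4. Only 4 of the 22588 stood that far above on both arrays, namely PAP85, AT5G06800 and 2 unnamed probe sets, all chosen after their values were seen. Probe set 253767_at read 6.35 and 7.92 there, against 3.66 to 4.47 on the other 5 ABA arrays, and 248125_at read 6.71 and 6.48, against 3.07 to 4.56. OLEO3, a protein of seed oil bodies, was the other gene of the storage list found by name. It read 4.18 and 3.70 there and 3.53 to 3.87 on the other 5 ABA arrays. The late embryogenesis gene M17 was 6.38 and 5.92 there and 5.35 to 6.41 on the others. Whether seed storage genes changed together on these 2 arrays was not settled. Only 2 of 20 listed genes were found by name, and the genes read by the 2 unnamed probe sets were not identified.

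After MeJA, PAP85 read 2.92 for WT, 2.75 to 2.84 for *PV-NES* and 2.55 to 3.23 for *PV-NLS*, and the log2 fold changes were 0.33, 0.28 and 0.34 (limma, adjusted p = 0.818, 0.717 and 0.617). After ACC it read 2.66 for WT, 2.48 to 2.83 for *PV-NES* and 2.50 to 2.64 for *PV-NLS*, with log2 fold changes of 0.08, 0.12 and 0.07 (adjusted p = 0.963, 0.930 and 0.946). In order of the group means of PAP85, from 3.80 in *PV-NLS* with ABA to 2.48 in the *PV-NLS* controls, no neighbours differed by more than the pooled SD of 0.67. That SD is set largely by the ABA groups, with SDs of 1.19 for *PV-NES* and 1.46 for *PV-NLS*. The other groups with replicates had SDs of 0.05 to 0.36. The MeJA and ACC tests use the same shared variance, so their p-values do not measure the smaller spread of those groups.

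**Figure D3:**
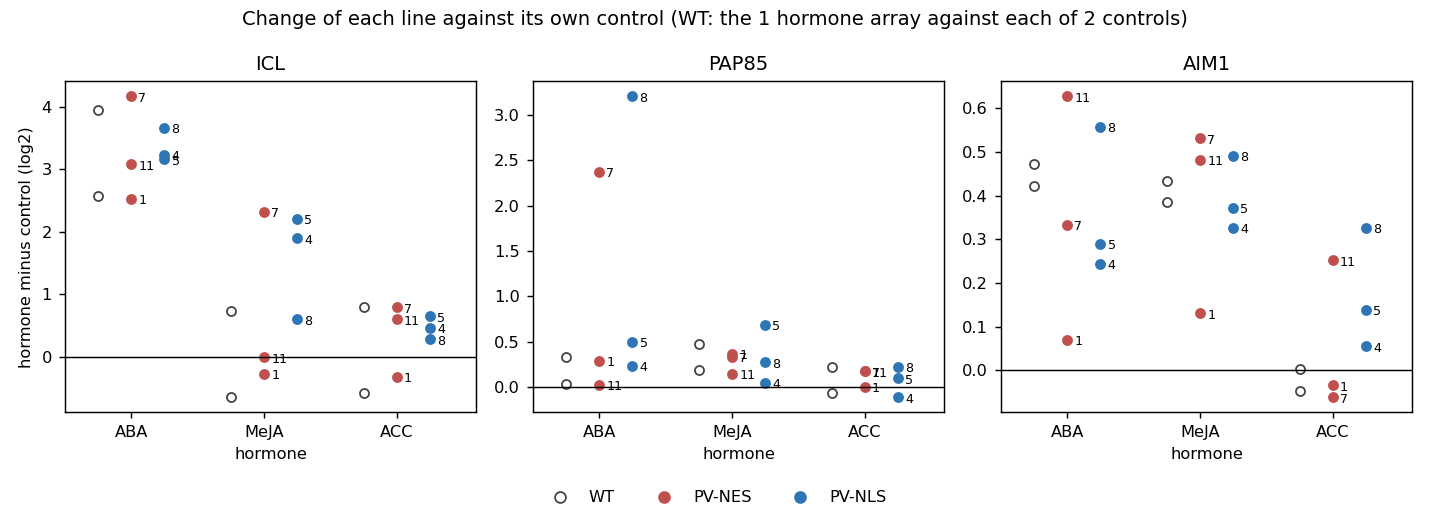
Change of each transgenic line in log2 signal, its hormone array minus its own control array, with the line number beside the point. WT points are the single hormone array minus each of the 2 controls, and the scales of the panels differ. PAP85 rose by 2.37 in PV-NES line 7 and by 3.21 in PV-NLS line 8 after ABA and by at most 0.69 elsewhere.

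AIM1 was a bright gene, with 93.6% of probe sets below its mean. Its control signals were 8.65 and 8.60 for WT, 8.97, 8.70 and 8.62 for *PV-NES* and 8.76, 8.73 and 8.65 for *PV-NLS*, each in the order of lines given above. With ABA they were 9.08 for WT, 9.04, 9.04 and 9.24 for *PV-NES*, and 9.001, 9.02 and 9.20 for *PV-NLS*. The 7 ABA arrays lay above the 8 controls without overlap, as they did for 5.53% of all genes. With MeJA they were 9.04 for WT, 9.10, 9.24 and 9.10 for *PV-NES*, and 9.08, 9.10 and 9.14 for *PV-NLS*. These 7 arrays also lay above all 8 controls, which 6.51% of genes did.

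With ACC, AIM1 was 8.61 for WT, 8.94, 8.64 and 8.87 for *PV-NES*, and 8.81, 8.86 and 8.97 for *PV-NLS*, within the control range of the first 2 genotypes and just above that of the third, whose controls ended at 8.76. The 14 ABA and MeJA arrays ran from 9.001 to 9.24 and the 15 control and ACC arrays from 8.60 to 8.97, so that these 2 sets of arrays did not overlap for AIM1. This held for 130 genes, 0.576% of those tested. The gap between the lowest of the 6 ABA and MeJA group means, 9.04 in WT with MeJA, and the highest of the other 6, 8.88 in *PV-NLS* with ACC, was 0.15, larger than the pooled SD of 0.11. Within either set of 6 groups no neighbours differed by more than the pooled SD.

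The log2 fold changes of AIM1 after ABA were 0.45, 0.34 and 0.36 (limma, adjusted p = 0.0648, 0.0311 and 0.0123). After MeJA they were 0.41, 0.38 and 0.40 (adjusted p = 0.0889, 0.00883 and 0.00501). The standard error was 0.15 for WT and 0.10 for either transgenic genotype. These are changes of 1.27-fold to 1.36-fold, so that none was called. An increase of any size with an adjusted p under 0.05 was found after ABA for 6.37% of genes among *PV-NES* plants and 12.4% among *PV-NLS* plants, and after MeJA for 11.3% and 16.2%. In *PV-NES* the response to ABA was 0.20 without line 11 (adjusted p = 0.502), and line 1, whose control was the brightest, changed least, by 0.07 after ABA and 0.13 after MeJA. The responses to ACC were -0.02, 0.05 and 0.17 (adjusted p = 0.952, 0.837 and 0.284).

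For AIM1 no difference between genotypes passed the test. For ABA the differences were -0.10 for *PV-NES* against WT (95% confidence interval -0.49 to 0.28), -0.08 for *PV-NLS* against WT (-0.47 to 0.30) and -0.02 for *PV-NES* against *PV-NLS* (-0.32 to 0.28). For MeJA they were -0.03 (-0.41 to 0.36), -0.01 (-0.40 to 0.37) and -0.02 (-0.32 to 0.29) in the same order. Differences of 2-fold lie outside all 6 of these intervals.

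Of the 3 members, 1, 1 and 2 were called higher after ABA, where 2.35%, 1.85% and 1.77% of all genes were. After MeJA 0, 0 and 1 were, beside 2.89%, 2.42% and 2.92% of all genes. After ACC 0 were in each genotype, beside 1.99%, 0.319% and 0.483%. ICL accounts for 4 of these 5 calls and PAP85 for the other. Called lower were 0 members in every response, beside 2.09%, 1.1% and 2.16% of all genes after ABA, 2.17%, 2.42% and 2.66% after MeJA and 3.41%, 0.363% and 0.633% after ACC. In the responses with 0 calls by limma, 0 members passed a fold of 2 at an unadjusted p under 0.05 either. At that limit 691 and 555 genes were higher after MeJA in WT and *PV-NES*. After ACC 543, 89 and 114 were. The methods' t-test also called 0 members in these responses. Over all genes it called 0 after MeJA in WT and after ACC in WT and *PV-NES*, and 1 after ACC in *PV-NLS*. Its 0 for the members therefore says little in those 4 responses. Over the 12 group means ICL and PAP85 correlated at 0.77, ICL and AIM1 at 0.68 and PAP85 and AIM1 at 0.60, values that share the same arrays and ABA groups.

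The other listed genes of these pathways were sparsely measured. A gene counted as measured only where a probe set named it alone and its listed name matched a gene symbol or synonym. A listed gene annotated by its locus alone could be missed. ICL was the 1 gene measured of 12 listed for the glyoxylate cycle and gluconeogenesis. Of 30 listed genes of fatty acid release, import and beta-oxidation, 3 were measured and 0 were called in any of the 9 responses. Beside AIM1 these were SDP1, the lipase that starts the breakdown of seed oil, and SDRB, a peroxisomal short-chain dehydrogenase. SDP1 had log2 fold changes of -0.29, -0.63 and -0.63 after MeJA (limma, adjusted p = 0.584, 0.0205 and 0.0148) and of -0.02, -0.08 and -0.05 after ABA. SDRB had 0.43, 0.53 and 0.48 after MeJA (adjusted p = 0.137, 0.00237 and 0.00400) and 0.37, 0.13 and 0.03 after ABA (adjusted p = 0.221, 0.584 and 0.867). The median of the 3 genes after ABA was that of SDRB, where all genes had -0.01, 0.01 and 0.04. After MeJA it was that of AIM1, where all genes had 0.04, 0.03 and 0.04.

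Of 14 listed jasmonate synthesis genes 2 were measured. OPCL1, the ligase that activates the precursors for beta-oxidation, rose after MeJA in WT by 1.05 (adjusted p = 0.00425 by limma), a call lost without WT control replicate 1. For *PV-NES* and *PV-NLS*, OPCL1 had 0.86 and 0.71 after MeJA (limma, adjusted p = 0.000260 and 0.00139), below 2-fold. JMT, which methylates jasmonic acid, rose after MeJA by 1.61 and 1.42 in the transgenic genotypes (adjusted p = 2.51e-07 and 1.25e-06). In WT JMT had 0.74 after MeJA, which was not called. It fell in WT by 1.15 after ABA (adjusted p = 0.00512) and by 1.19 after ACC (adjusted p = 0.00363), and neither fall was called without WT control replicate 1. After ABA, where AIM1 was higher, JMT had -0.88 and -0.89 in the transgenic genotypes, and after ACC it had -0.81 for *PV-NES* and -0.63 for *PV-NLS*. OPCL1 had -0.24, -0.81 and -0.71 after ABA (limma, adjusted p = 0.601, 0.000956 and 0.00187), below 2-fold.

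Of 20 listed genes of storage proteins and oil bodies, PAP85 and OLEO3 were found by name. For this list 2 names matched no gene, so other genes of it may be on the array without being counted. OLEO3 had log2 fold changes after ABA of 0.45, 0.54 and 0.55 (limma, adjusted p = 0.155, 0.00752 and 0.00396), below 2-fold. Of 12 listed late embryogenesis genes, whose products protect drying embryos, 5 were measured, and 4 rose after ABA in each genotype. These were M17 by 4.39, 3.39 and 3.97, and AtLEA4-1 by 4.38, 3.99 and 4.55, with LEA4-5 and LEA18. The median of the 5 was 4.39, 3.99 and 4.40, while that of all genes was -0.01, 0.01 and 0.04. Their increase on each of the 7 ABA arrays, where the mean of the 5 was 6.72 to 7.33 against 3.07 to 4.05 on the 8 controls, parallels that of ICL and is unlike the 2 arrays of PAP85. The fifth, M10, rose after MeJA by 1.16 in WT (adjusted p = 0.0203) and by 1.13 for *PV-NLS* (adjusted p = 0.000322), and LEA4-5 fell after ACC for *PV-NLS* (adjusted p = 0.0259). The call of M10 in WT was lost without WT control replicate 2, and that of LEA4-5 without any 1 of the 3 *PV-NLS* lines. For *PV-NES*, M10 had 0.81 after MeJA (limma, adjusted p = 0.00806), below 2-fold. The log2 fold changes of LEA4-5 after ACC were -1.62 for WT, -1.30 for *PV-NES* (limma, adjusted p = 0.0586) and -1.30 for *PV-NLS*. Only the last was called. The WT change set 1 ACC array at 3.72 against controls at 4.23 and 6.45, so its size is uncertain.

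Genes of the peroxisomes themselves were measured too sparsely to describe peroxisomes. PEX4, a ubiquitin-conjugating enzyme of peroxisome formation and the 1 measured of 25 listed, had log2 fold changes of -0.36 to 0.24 over the 9 responses. The value of -0.36 was that after ABA in *PV-NLS* (limma, adjusted p = 0.0118). HPR was the 1 measured of 17 listed leaf peroxisome genes, and its fall after MeJA in *PV-NLS* was its only call with all arrays in the fit, while without WT control replicate 2 its fall in WT was called too. After ABA, HPR had 0.59, 0.28 and 0.53 (limma, adjusted p = 0.117, 0.310 and 0.0159), below 2-fold. None of 13 listed regulators of seed maturation was measured under a name. No leaf marker was called in any response, and of the root markers EXPA7 rose after ABA in both transgenic genotypes, 2.32-fold and 2.46-fold, and EXPA18 by 1.21 on the log2 scale among *PV-NES* plants, beside ICL. The call of EXPA18 was lost without line 7 or line 11 of *PV-NES* or line 5 of *PV-NLS*. In WT, EXPA7 had 0.97 on the log2 scale after ABA, just under 2-fold and not called. PYK10, the third root marker, had -0.07, -0.33 and -0.27 after ABA (adjusted p = 0.850, 0.04997 and 0.0787), and EXPA18 had -0.02 in WT and 0.42 for *PV-NLS*. Leaf markers averaged 11.8 to 11.9 on the ABA arrays and 12.1 to 12.2 on the controls, and the part of tissue make-up in the ICL response was not tested.

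**Figure D4:**
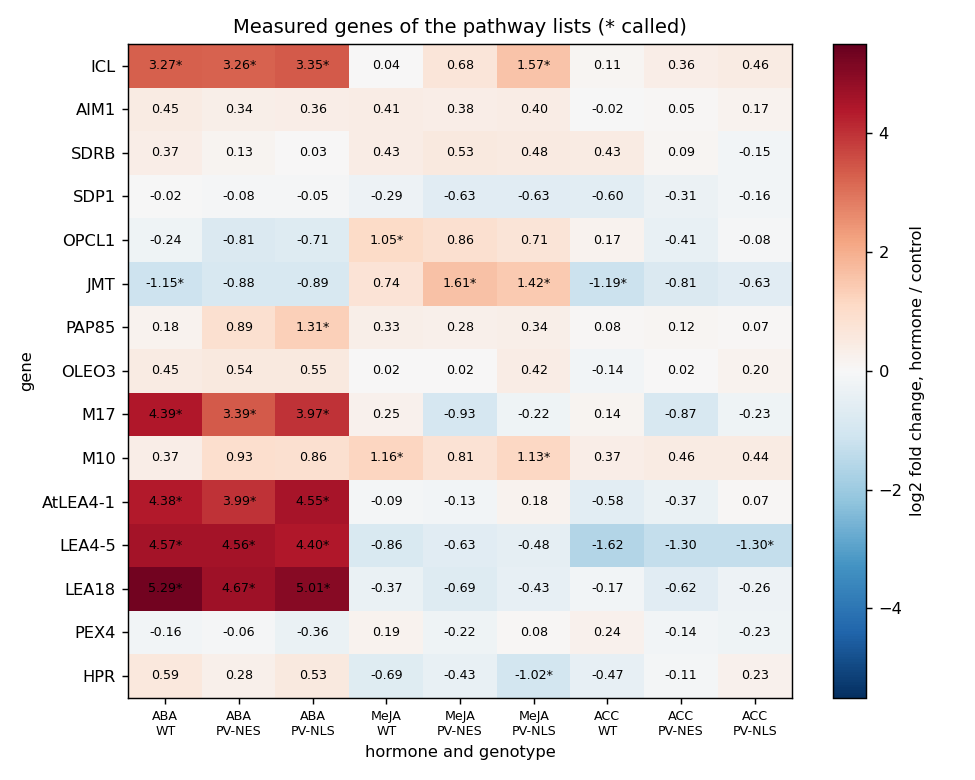
Log2 fold change of each measured gene of the seed reserve, peroxisome and jasmonate lists (rows) in the 9 responses of hormone against control (columns), with the value in each cell and an asterisk where called. ICL and 4 late embryogenesis genes (M17, AtLEA4-1, LEA4-5, LEA18) were called after ABA in every genotype, PAP85 in PV-NLS alone and AIM1 in no column.

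Genes with a like pattern were sought by Pearson correlation over the 12 group means, as a description. For ICL 211 of 22587 other genes exceeded 0.9, and the nearest with a gene name were AT2G16990 (0.995), AT4G11350 (0.978), AT2G35585 (0.973), AT4G18650 (0.972) and AT3G01570 (0.970). For AIM1 45 did, and the nearest with a gene name were ZW9 and MGL (both 0.953), HOS3-1 and AT1G28570 (both 0.949) and AT2G18720 (0.944). MGL encodes methionine gamma-lyase. For PAP85 only 5 exceeded 0.9, of which 3 had a gene name, AT1G12130 (0.917), AT3G21380 (0.916) and AT1G74300 (0.910). The next with a name were AT3G56350 (0.892) and BUB3.1 (0.872), a spindle checkpoint protein. Over the 29 single arrays the nearest to PAP85 was the unnamed probe set 248125_at (0.911), which was high on the same 2 arrays, whereas AT3G21380 had 0.41 and BUB3.1 0.32.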

How the data were processed

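The deposited table holds log2 signals per probe set of 29 ATH1 arrays, which the authors normalised over all arrays by RMA, per the labels and the methods. The base was read from the range of the values, 1.35 to 13.3. No batch is named in the sources used here, and the number of arrays limits the precision. RMA makes the arrays alike in distribution, so a change shared by most genes would not be seen.

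The 64 control probe sets among 22810 were not tested. The platform annotation names 1 gene for 13513 probe sets, several for 503 and none for 8730. The last 2 kinds were tested unnamed, and 147 genes with several probe sets were represented by the one with the highest mean, which left 22588. The platform's gene IDs were matched to RefSeq (TAIR10.1) for 13436 probe sets.

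The values were fitted by limma 3.58.1 in R 4.3.3 (lmFit of 12 group means, eBayes, 17 residual and 5.94 prior degrees of freedom, moderated test), and the fit was tested on simulated data. The methods' t-test, single-comparison fits, robust and trended variance, array weights, median centring, all probe sets, a filter on dim probe sets, left-out replicates and the line as a block were alternatives. The labels name the same transgenic line in every treatment, which pairs the arrays. Deviations from the group means correlated between arrays of one line at medians of 0.01 (*PV-NES* lines) and 0.11 (*PV-NLS* lines), against -0.02 and -0.06 between lines. The lines are independent and the methods name 2 WT plants. The p-values measure mostly the spread between the transgenic lines, also in tests that involve WT. The only spread within WT that enters them is that between the 2 control arrays. The members, lists and tests were chosen with earlier results of these data known. The named genes are the members, the measured genes of the lists that were called in a response with up to 3 others per list, and the 5 named genes most like each member. No sequence was used.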

Additional observations from a re-analysis of the deposited data

How the results depend on the processing

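For the 63 results of the 3 members, 511 of 519 values under 9 alternatives and 687 of 693 with a replicate left out kept their side of the threshold and none of the called ones turned. Most of these results were called in no fit, so the shares say little about the calls. The other 8 and 6 values were all calls that were lost. ICL after ABA in WT (3.27) was not called with only the groups compared (adjusted p = 0.142) or by the methods' t-test (0.819). ICL after MeJA in *PV-NLS* (1.57) was not called by the methods' t-test (0.143), and ran from 1.25 to 2.05 with a replicate left out. PAP85 after ABA in *PV-NLS* (1.31) was not called with the line as a replicate block (0.0535), the 1 call that the block changed. Nor was it with only the groups compared (0.0894), robust variance (0.0786), array weights (0.87, adjusted p = 0.0797) or the methods' t-test (0.369), and it ran from 0.37 to 1.85 with a replicate left out, not called without line 1 or 11 of *PV-NES* (0.0648 and 0.0646), line 8 of *PV-NLS* or its ABA array. The causes were not tested. PAP85 was among the dim genes that the filter on dim probe sets removes. The sign of 74 values over 35 results called in neither fit turned, none with an adjusted p below 0.322. Over all genes the methods' t-test called 0 after ABA, MeJA and ACC in WT (limma 1002, 1143 and 1221), 432 and 555 after ABA in *PV-NES* and *PV-NLS* (667 and 888), 720 and 727 after MeJA (1093 and 1261), and 0 and 1 after ACC (154 and 252). Without WT control replicate 1, 209 genes were higher and 484 lower after ACC in WT (450 and 771). Without replicate 2, 919 were higher, and 817 lower after MeJA (491). After ACC 31 and 30 were higher in *PV-NES* without line 7 or 11 (72), 34 lower without line 11 (82), and 57 higher in *PV-NLS* without line 4 (109). Of the list counts 28 moved by over 1.5 times, by at most 2 genes.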
